A study of Mus musculus with 6 samples.

Results

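The inhibin, activin and follistatin system was followed across 6 RNA-seq libraries of cultured mouse granulosa cells, which line the ovarian follicle and nurse its oocyte. Its 10 members were taken by name as the genes of the ligand subunits (Inha, Inhba and Inhbb), the binding proteins (Fst, Fstl1 and Fstl3) and the receptors (Acvr1b, Acvr2a, Acvr2b and Tgfbr3). All 10 were found among the 27151 genes of the deposited table, and all 10 passed the filter on low values, with 12181 genes in all. There were 3 libraries of cells treated with GSK4112, a small-molecule agonist of the clock repressor NR1D1 (REV-ERBα), and 3 control libraries. Cells of both groups were obtained by follicle puncture in a medium with milrinone, an inhibitor of phosphodiesterase. Growth in serum for 24 h was followed by 12 h of serum starvation. The agonist was then present or absent over 24 h, with fresh medium every 12 h. The series' design text speaks of treatment in vivo, whereas the protocol describes a culture, and the samples are treated here as cultures. Strain and age are not in the labels, nor is it said that replicates are independent cultures or animals. The p-values therefore reflect only how much these samples varied, which may be technical variation.

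Inhibins and activins are dimers of shared subunits. The alpha subunit paired with a beta subunit makes an inhibin, and a pair of beta subunits makes an activin. Activins bind type 2 receptors, which recruit the type 1 receptor ALK4 and lead to phosphorylation of SMAD2 and SMAD3, while inhibins occupy the type 2 receptors together with betaglycan, and follistatins wrap around activins and keep them from their receptors. In the ovary the system is known for the endocrine restraint of pituitary FSH by inhibin and for local action of activin on granulosa cells.

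The libraries held 16559256 to 18158272 fragments each, as recovered from the steps of the FPKM values (fragments per kilobase of exon, scaled to library size). Of 10 granulosa markers 8 averaged at least 1 FPKM, and all 10 summed to between 318 and 399 FPKM in GSK4112 libraries and between 338 and 370 FPKM in control libraries. The exceptions were Amh, the gene of anti-Müllerian hormone (0.352 ± 0.0974 FPKM in GSK4112 cells and 0.49 ± 0.154 FPKM in control cells, SD, n = 3 each) and Cyp19a1, the aromatase gene (0.0862 ± 0.0763 FPKM in GSK4112 cells and 0.0727 ± 0.0707 FPKM in control cells). Hsd17b1, a steroidogenic enzyme gene, was called lower in limma (25.3 ± 3.93 FPKM in GSK4112 cells and 64.3 ± 7.25 FPKM in control cells, adjusted p = 0.0187). Kitl, the gene of KIT ligand, had 79.1 ± 16.0 FPKM in GSK4112 cells and 34.5 ± 6.79 FPKM in control cells, with no overlap. At the filter of 1 FPKM it was not called without the replicate block (adjusted p = 0.0549 in limma). It was called higher with the block (adjusted p = 0.0257 in limma). Without the block it was also called higher at a filter of 5 FPKM (adjusted p = 0.0456 in limma). The theca enzyme gene Cyp17a1 was at 0.0555 FPKM or less in every library, and 7 oocyte markers summed to 0.44 to 1.48 FPKM in GSK4112 libraries and to 0.139 to 3.47 FPKM in control libraries. In each group the replicate 1 library differed from the others. The sum of 12 mitosis genes was 147, 29.2 and 25.6 FPKM in GSK4112 replicates 1, 2 and 3, and 199, 47.5 and 53.5 FPKM in control replicates 1, 2 and 3. Markers of theca and stroma summed to 142, 73.2 and 86.0 FPKM in GSK4112 libraries and to 264, 53.2 and 54.9 FPKM in control libraries, most of it from Acta2. Of these 8 markers only 2, Acta2 and Col1a1, averaged at least 1 FPKM. The deviations of same-numbered libraries from their group means correlated at 0.665, 0.326 and 0.213 over genes, and a further fit took the replicate number as a block. This pairing follows the numbers in the labels, which do not say that such libraries belong together. The correlations single it out for replicate 1 only. For replicates 2 and 3 the crossed matches were closer, with 0.53 between GSK4112 2 and control 3, and 0.357 between GSK4112 3 and control 2. All results with the replicate block rest on the label numbers, and a block with the crossed matches was not tested.

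The stretches upstream of Inhba, Inhbb and Fstl3 are shown because these genes had lower levels with GSK4112 in all 3 same-numbered pairs and have an entry in the RefSeq promoter table (GRCm38.p6). Each is the 250 bases before the start, on the gene's own strand, from chr13:16011601-16011850 (plus strand), chr1:119422249-119422498 (minus strand) and chr10:79777024-79777273 (plus strand). Capitals mark matches to the motifs searched, which only the Fstl3 stretch holds: AGGTCA on the opposite strand at -200 to -195 and CAGACA on the opposite strand at -162 to -157 from the start.
Inhba: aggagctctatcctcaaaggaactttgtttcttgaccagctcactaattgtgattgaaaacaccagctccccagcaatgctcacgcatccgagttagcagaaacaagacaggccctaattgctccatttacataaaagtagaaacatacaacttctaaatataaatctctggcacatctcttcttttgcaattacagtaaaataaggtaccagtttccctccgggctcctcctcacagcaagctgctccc
Inhbb: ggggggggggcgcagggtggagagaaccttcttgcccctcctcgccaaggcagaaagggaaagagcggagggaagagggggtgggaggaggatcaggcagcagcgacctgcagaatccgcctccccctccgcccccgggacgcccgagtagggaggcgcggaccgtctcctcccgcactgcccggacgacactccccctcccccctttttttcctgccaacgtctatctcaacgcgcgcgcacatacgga
Fstl3: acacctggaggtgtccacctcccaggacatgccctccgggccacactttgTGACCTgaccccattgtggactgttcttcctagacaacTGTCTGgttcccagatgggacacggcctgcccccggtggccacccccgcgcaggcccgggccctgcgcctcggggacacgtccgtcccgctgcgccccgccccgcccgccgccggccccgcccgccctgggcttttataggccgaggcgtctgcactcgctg
Of the members, 8 had an entry (all but Fst and Tgfbr3), and windows of 250 bases before and 50 after the start were searched on both strands. The nuclear receptor half-site AGGTCA, to which REV-ERB and SF-1 proteins can bind, was found in 2 of 8 windows (Fstl3 and Inha) and in 16.3% of all 32851 promoter windows. The SMAD-type motif CAGACA was found in 1 of 8 (Fstl3), against 21.04% of all windows. No match was found in the 8 windows for CAAGGTCA, an extended half-site that contains the first motif (1.56% of all windows), for the cAMP response element TGACGTCA (1.79%), for its part CGTCA (20.8%) or for the AP-1 motif TGANTCA (7.81%). The Inha window is placed on a RefSeq start 532 bases inside the GENCODE gene and is therefore not the region before the first annotated exon. The starts used for Fstl1 and Acvr2b lie 182 and 60 bases inside, and those for Acvr1b and Fstl3 5 and 2 bases.

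Among the ligand subunits, the GSK4112 libraries lay below the control libraries for both beta subunit genes, and the groups overlapped for the alpha subunit gene. Neither beta subunit gene passed in limma over all 6 libraries without the replicate block or sample weights. Both passed with the block, with sample weights, without GSK4112 replicate 1 and without both replicate 1 libraries. Neither passed when any other single library was left out. Inhba, which encodes the beta A subunit of activin A and inhibin A (ENSMUSG00000041324; GRCm38 chromosome 13, 16011851 to 16031621, plus strand), had 207, 89.0 and 76.6 FPKM in GSK4112 replicates 1, 2 and 3, against 341, 300.3 and 363 FPKM in control replicates 1, 2 and 3. All GSK4112 libraries lay below all control libraries, and GSK4112 replicate 1 lay closest to them. The log2 change of Inhba was -1.56 ± 0.36 (limma, SE, on log2(FPKM + 1), GSK4112 minus control), which missed the threshold with an adjusted p of 0.102 and passed it with the replicate block (adjusted p = 0.0266). Within the same-numbered pairs it was -0.72, -1.74 and -2.23. Without GSK4112 replicate 1 the change of Inhba was -2.00 (adjusted p = 0.00989 in limma), and without both replicate 1 libraries it was -1.99 (adjusted p = 0.0022). The adjusted p of Inhba in limma was 0.148, 0.217 and 0.241 without control replicates 1, 2 and 3. It was 0.354 and 0.332 without GSK4112 replicates 2 and 3.

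Inhbb, the gene of the beta B subunit of activin B and inhibin B (ENSMUSG00000037035; chromosome 1, 119415465 to 119422248, minus strand), had 7.48, 2.40 and 2.76 FPKM in GSK4112 libraries, against 21.3, 10.2 and 11.4 FPKM in control libraries. The groups did not overlap, and the replicate 1 library was the highest in each. Its log2 change was -1.61 ± 0.41 (SE; adjusted p = 0.126 in limma, 0.00184 with the replicate block), and the 3 pairs were alike at -1.39, -1.72 and -1.73. Without GSK4112 replicate 1 the change of Inhbb was -2.03 (adjusted p = 0.048 in limma), and without both replicate 1 libraries it was -1.72 (adjusted p = 0.0022). The adjusted p of Inhbb in limma was 0.177, 0.214 and 0.239 without control replicates 1, 2 and 3. It was 0.395 and 0.398 without GSK4112 replicates 2 and 3. An exact permutation test (two-sided) of the 6 values gave p = 0.1 for either beta subunit gene, the smallest p that 3 against 3 can give. In these bulk samples, fewer cells of a type and less RNA per cell cannot be told apart. The 12 mitosis genes all had a log2 change below 0, with 0 called in limma and 6 called lower with the replicate block, beside 3.82% of all genes tested, and their sum was highest in the replicate 1 library of each group, as was Inhbb. Inhba was highest in replicate 1 among GSK4112 libraries (207 FPKM) but in replicate 3 among control libraries (363 FPKM). The part of the mitosis genes in the beta subunit levels was not tested.

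Inha, the gene of the alpha subunit that only inhibins contain (ENSMUSG00000032968; chromosome 1, 75507077 to 75510366, plus strand), was the most abundant member. It had 1370, 2060 and 2245 FPKM in GSK4112 libraries, against 1834, 2173 and 2101 FPKM in control libraries. The groups overlapped, and GSK4112 replicate 1 was the lowest of the 6. Its log2 change of -0.13 ± 0.22 (SE) did not pass in limma (adjusted p = 0.795, and 0.708 with the replicate block).

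**Figure D1:**
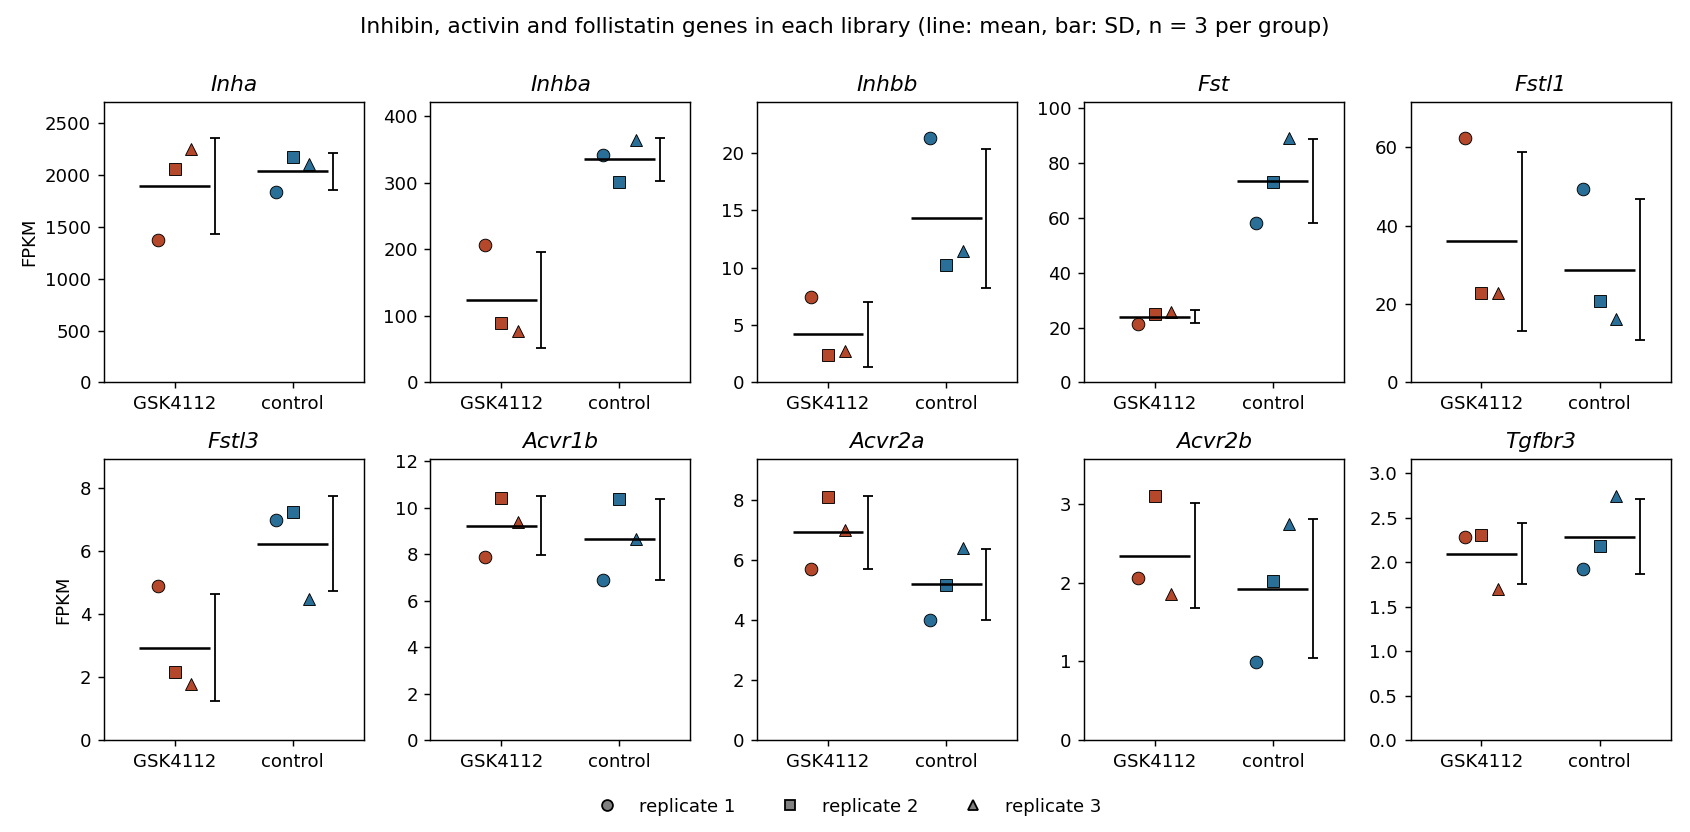
FPKM of each member in each library (vertical axes, each from 0), with GSK4112 left of control; marker shapes give the replicate number, lines the mean and bars the SD of 3 libraries. The GSK4112 points of Inhba, Inhbb and Fst all lie below the control points, and those of the other 7 genes overlap with them.

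Per length of transcript the levels followed a steep order. Inha averaged 1892 ± 461 FPKM in GSK4112 cells and 2036 ± 179 FPKM in control cells (SD, n = 3 each), and Inhba was second in both groups with 124 ± 71.7 FPKM in GSK4112 cells and 335 ± 31.9 FPKM in control cells. Neither gene's range overlapped with that of the next in the order. The beta A gene held 96.8 ± 0.497% of the summed beta subunit FPKM in GSK4112 cells and 95.9 ± 1.57% in control cells. In control cells Fst came next with 73.6 ± 15.4 FPKM, above Fstl1 with no overlap, whereas in GSK4112 cells Fstl1 (36.0 ± 22.8 FPKM) and Fst (24.0 ± 2.38 FPKM) overlapped in range. Lower in the order, the neighbours from Acvr1b to Tgfbr3 in GSK4112 cells overlapped in range, as did those from Fstl1 to Acvr2a in control cells.

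Of the binding proteins, follistatin itself was lower. Fst, which encodes the secreted protein that binds activins almost irreversibly (ENSMUSG00000021765; chromosome 13, 114452290 to 114458951, minus strand), had 21.3, 24.95 and 25.8 FPKM in GSK4112 libraries, against 58.4, 73.2 and 89.1 FPKM in control libraries. The 3 GSK4112 values lay close together, far below the lowest control value. Fst fell by 1.56 ± 0.16 on the log2 scale (SE; adjusted p = 0.0187 in limma, 0.00184 with the replicate block), and was lower in 3 of 3 pairs (-1.41, -1.52 and -1.75). Its exact permutation test gave p = 0.1 too. Of the 10 members, 1 was called lower (Fst) and none higher, beside 1.03% of all genes tested that were called in either direction, 0.624% lower and 0.41% higher. Without control replicate 2, control replicate 3, GSK4112 replicate 2 or GSK4112 replicate 3 the adjusted p of Fst was 0.0809, 0.0622, 0.107 and 0.112, with changes between -1.41 and -1.61.

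Fstl3, the gene of a follistatin-like activin-binding protein (ENSMUSG00000020325; chromosome 10, 79777272 to 79782630, plus strand), had 4.89, 2.15 and 1.79 FPKM in GSK4112 libraries, against 6.98, 7.25 and 4.50 FPKM in control libraries. GSK4112 replicate 1 lay above control replicate 3, so the groups overlapped, but each GSK4112 library lay below its own number in control. The log2 change of Fstl3 was -0.94 ± 0.31 (SE; adjusted p = 0.204 in limma, 0.0363 with the replicate block).

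Fstl1 encodes a more distant secreted glycoprotein of the follistatin family (ENSMUSG00000022816; chromosome 16, 37776873 to 37836514, plus strand). It had 62.3, 22.9 and 22.8 FPKM in GSK4112 libraries, against 49.4, 20.7 and 16.2 FPKM in control libraries. Both replicate 1 libraries lay above the other 4, and the groups overlapped. Its log2 change of 0.31 ± 0.52 did not pass (adjusted p = 0.798 in limma, 0.108 with the replicate block). The summed theca and stroma markers, mostly Acta2, were likewise highest in the replicate 1 library of each group, and their part in the level of Fstl1 was not tested.

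**Figure D2:**
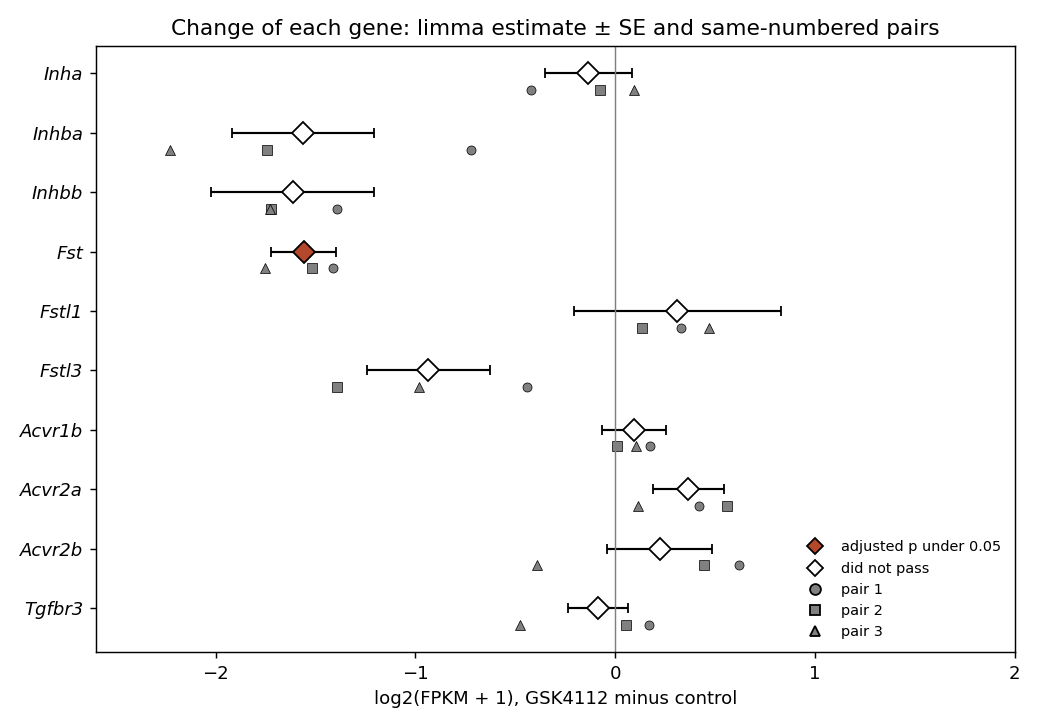
Log2 change of each member, GSK4112 minus control on log2(FPKM + 1) (horizontal axis): diamonds give the limma estimate with its SE, filled where the adjusted p was under 0.05, and grey marks the 3 same-numbered pairs. Inhba, Inhbb and Fst lie near -1.6 with every pair below 0, Fstl3 near -0.94, and the other 6 within 0.4 of 0.

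None of the receptor genes passed. Acvr2a, the gene of a type 2 receptor for activin (ENSMUSG00000052155; chromosome 2, 48814109 to 48903269, plus strand), had 5.69, 8.11 and 7.001 FPKM in GSK4112 libraries, against 4.0, 5.18 and 6.395 FPKM in control libraries. Each GSK4112 library lay above its own number in control, but the groups overlapped, and the log2 change of 0.37 ± 0.18 did not pass (adjusted p = 0.36 in limma, 0.112 with the replicate block). Acvr2b, the second type 2 receptor gene (ENSMUSG00000061393; chromosome 9, 119402118 to 119434995, plus strand), had 2.06, 3.11 and 1.86 FPKM in GSK4112 libraries, against 0.995, 2.02 and 2.75 FPKM in control libraries. The groups overlapped, with a log2 change of 0.22 ± 0.26 (adjusted p = 0.709 in limma).

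Acvr1b, which encodes the type 1 receptor ALK4 (ENSMUSG00000000532; chromosome 15, 101174067 to 101213684, plus strand), had 7.895, 10.4 and 9.39 FPKM in GSK4112 libraries, against 6.88, 10.4 and 8.68 FPKM in control libraries. The groups overlapped, and the log2 change was 0.0955 ± 0.16 (adjusted p = 0.8 in limma). Tgfbr3, the gene of the coreceptor betaglycan, which strengthens inhibin binding (ENSMUSG00000029287; chromosome 5, 107106570 to 107289629, minus strand), had 2.29, 2.31 and 1.70 FPKM in GSK4112 libraries, against 1.93, 2.19 and 2.75 FPKM in control libraries. The lowest and the highest of its 6 values were both in replicate 3 libraries, and the log2 change was -0.0845 ± 0.15 (adjusted p = 0.808 in limma). These receptor genes were counted on few fragments, with 71 to 202 per library for Acvr2b and 193 to 299 for Tgfbr3.

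Over the 10 members, 6 had a log2 change below 0 and 4 above, with a median of -0.11 beside 0.0543 over all genes tested. Groups did not overlap for 3 of the 10, all of them lower (Inhba, Inhbb and Fst), while 23.6% of all genes tested had groups that did not overlap, 7.9% lower and 15.7% higher. With the replicate block 4 of the 10 fell (Inhba, Inhbb, Fst and Fstl3), beside 6.89% of all genes called in either direction in that fit and 3.82% called lower. The same 4 were lower in all 3 same-numbered pairs, as were 18.6% of all genes tested, and 3 (Fstl1, Acvr1b and Acvr2a) were higher in all 3 pairs, as were 29.9% of all genes tested. Of 12181 genes, 21 had a lower log2 change than Inhbb, 25 than Inhba and 26 than Fst, and 161 than Fstl3. The members were chosen with earlier results of these data known, so these ranks are a description and not a test.

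The genes were then set against each other within a library, where library scaling cancels. The ratio of Inha to the summed beta subunits was 6.4, 22.5 and 28.3 in GSK4112 libraries, against 5.07, 6.999 and 5.61 in control libraries. GSK4112 replicates 2 and 3 lay far above every control library, and GSK4112 replicate 1 lay among them. The mean log2 difference was 1.45, a 2.74-fold higher ratio, with an exact two-sided permutation p of 0.2 (0.8 adjusted over the 4 ratios tested, smallest possible p 0.1). The ratio of the activin-binding genes Fst plus Fstl3 to the beta subunits was 0.122, 0.296 and 0.347 in GSK4112 libraries, against 0.18, 0.259 and 0.25 in control libraries. Both the numerator and the denominator were lower in every GSK4112 library than in any control library, with 27.0 ± 0.701 FPKM in GSK4112 cells and 79.8 ± 14.1 FPKM in control cells for the binding genes, and 128 ± 74.5 FPKM in GSK4112 cells and 349 ± 33.96 FPKM in control cells for the beta subunits. The ratio itself had a mean log2 difference of 0.0357 (exact permutation p = 1) and changed sign when single libraries were left out, from -0.25 to 0.50. Inhba over Inhbb was 27.6, 37.1 and 27.8 in GSK4112 libraries, against 16.0, 29.5 and 31.7 in control libraries (exact permutation p = 0.6). Acvr2b over Acvr2a was 0.363, 0.383 and 0.266 in GSK4112 libraries, against 0.249, 0.39 and 0.431 in control libraries (exact permutation p = 0.7).

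**Figure D3:**
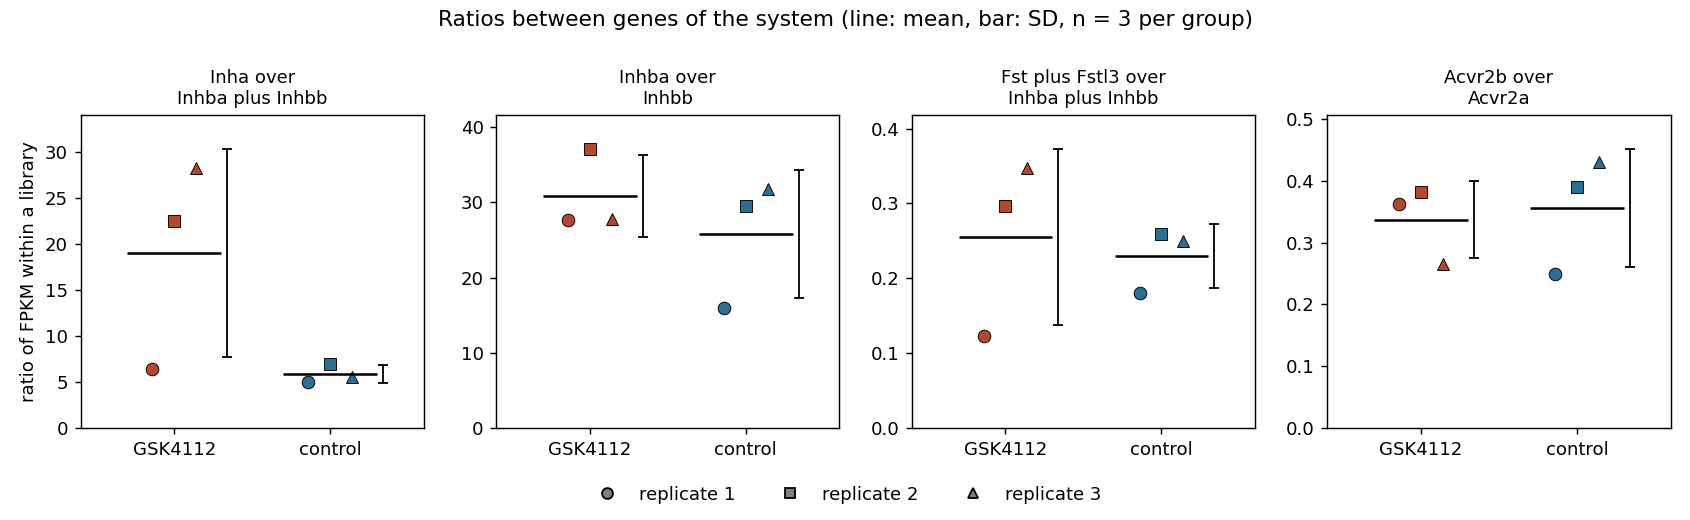
Ratios of FPKM within each library (vertical axes, each from 0), with GSK4112 left of control; marker shapes give the replicate number, lines the mean and bars the SD of 3 libraries. Inha over the beta subunits reaches 22.5 and 28.3 in GSK4112 replicates 2 and 3, while the remaining 4 libraries lie between 5.07 and 6.999.

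The rest of the pathway was read from lists of 72 further genes, of which 53 passed the filter. None of the 53 was called in either direction, and their median log2 change was -0.015. With the replicate block 4 fell and 1 rose, beside 3.82% and 3.07% of all genes. Of 4 tested genes of the proprotein convertases, which cut the precursors of the ligands, 1 was called lower with the block. Pcsk5, the gene of convertase PC5/6, had 8.69, 4.01 and 3.93 FPKM in GSK4112 libraries, against 25.6, 12.9 and 13.01 FPKM in control libraries. The groups did not overlap, and the change was alike in the 3 pairs (-1.45, -1.47 and -1.51), with a log2 change of -1.48 ± 0.35 (adjusted p = 0.111 in limma, 0.00184 with the replicate block). Furin, the most abundant of the 4, had 20.96 ± 0.383 FPKM in GSK4112 cells and 19.3 ± 0.59 FPKM in control cells (adjusted p = 0.45 in limma).

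Among other ligands that act through SMAD2 and SMAD3, 4 of 11 passed the filter and none was called. Tgfb1 had 12.5 ± 0.719 FPKM in GSK4112 cells and 9.74 ± 0.566 FPKM in control cells (SD, n = 3 each; adjusted p = 0.126 in limma), and Gdf11, a relative of myostatin that uses the activin receptors, had 11.1 ± 0.701 FPKM in GSK4112 cells and 8.43 ± 1.64 FPKM in control cells (adjusted p = 0.239). The oocyte ligand gene Gdf9, which did not pass the filter and was named after its values were seen, was at 0.257 ± 0.271 FPKM in GSK4112 cells and 0.302 ± 0.372 FPKM in control cells. Of 10 other receptors and coreceptors 6 passed the filter and none was called. Tgfbr1, the type 1 receptor gene for TGF-beta, had 35.4 ± 3.18 FPKM in GSK4112 cells and 27.2 ± 6.68 FPKM in control cells (adjusted p = 0.351), and Acvr1, the gene of ALK2, 6.61 ± 0.75 FPKM in GSK4112 cells and 6.53 ± 0.488 FPKM in control cells. The inhibin coreceptor gene Tgfbr3l, named after its values were seen, had 1.37, 1.42 and 1.18 FPKM in GSK4112 libraries, against 0.883, 0.672 and 0.533 FPKM in control libraries (adjusted p = 0.205).

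Of 13 SMADs and partners 12 passed the filter and none was called; with the block 1 fell. That gene was Tgif1, a corepressor of SMAD2 and SMAD3 (named after its values were seen), with 12.0, 14.8 and 15.5 FPKM in GSK4112 libraries, against 16.5, 20.0 and 24.3 FPKM in control libraries (adjusted p = 0.201 in limma, 0.0292 with the replicate block). Smad6, an inhibitory SMAD, had 46.5 ± 2.89 FPKM in GSK4112 cells and 42.4 ± 1.6 FPKM in control cells, and Smad4, the common partner, 39.5 ± 1.96 FPKM in GSK4112 cells and 32.1 ± 3.41 FPKM in control cells (adjusted p = 0.466 and 0.212 in limma).

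Of 10 tested targets of SMAD2 and SMAD3 none was called, with or without the replicate block. Their log2 change was below 0 for 8 and above 0 for 2, and the median was -0.20. Of all 12181 genes tested, 4766 were below 0 and 7415 above, with a median of 0.0543. Smad7 and Skil are counted both here and among the SMADs and partners. The most abundant targets were Cdkn1a, a cell cycle inhibitor gene (71.2 ± 3.45 FPKM in GSK4112 cells and 68.9 ± 9.33 FPKM in control cells), and Ltbp3, which encodes a binding protein of latent TGF-beta (57.4 ± 4.97 FPKM in GSK4112 cells and 67.9 ± 1.115 FPKM in control cells; adjusted p = 0.236 in limma).

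Of 18 known regulators of the subunit and follistatin promoters, all were tested and none was called. The list counts Fshr and Lhcgr, the genes of hormone receptors at the cell membrane, along with transcription factor genes. With the block 2 fell (Fos and Junb) and 1 rose (Gata6), all named after their values were seen. Fos, an AP-1 subunit gene, had 9.15, 1.62 and 1.98 FPKM in GSK4112 libraries, against 67.4, 7.39 and 6.87 FPKM in control libraries, with the replicate 1 libraries far above the others in each group (adjusted p = 0.354 in limma, 0.0118 with the replicate block). Junb had 40.1, 25.2 and 27.5 FPKM in GSK4112 libraries, against 54.7, 34.2 and 38.2 FPKM in control libraries (0.383 and 0.0297 as adjusted p in limma without and with the block). Gata6 had 19.3, 30.0 and 30.4 FPKM in GSK4112 libraries, against 13.6, 23.4 and 23.4 FPKM in control libraries (0.485 and 0.0429 as adjusted p likewise). The most abundant regulators were Fosl2 (139 ± 20.4 FPKM in GSK4112 cells and 130 ± 38.0 FPKM in control cells) and Gata4 (123.1 ± 8.22 FPKM in GSK4112 cells and 97.3 ± 10.8 FPKM in control cells; adjusted p = 0.194 in limma). Of 7 genes of other follistatin domain and binding proteins only Sparc passed the filter (513 ± 36.7 FPKM in GSK4112 cells and 532 ± 35.0 FPKM in control cells; adjusted p = 0.849).

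**Figure D4:**
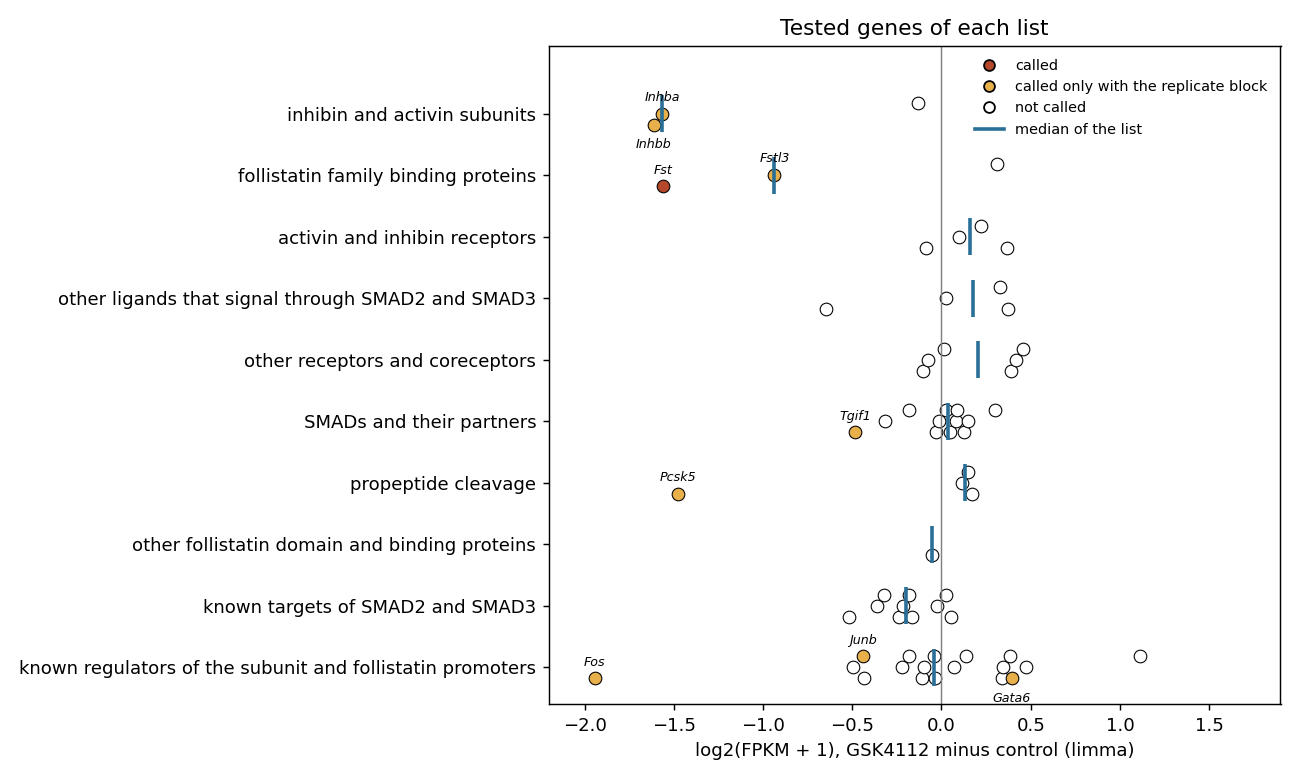
Log2 change of the tested genes of each list, GSK4112 minus control on log2(FPKM + 1) (horizontal axis), coloured by whether limma called it without the replicate block, only with it, or not at all; vertical bars are list medians. Fst is the only gene called without the block, and Inhba, Inhbb, Fstl3, Pcsk5, Tgif1, Fos and Junb lie below 0 among those called with it.

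The genes with the most similar pattern were sought among 7515 genes with a mean of at least 5 FPKM, by Pearson's r of log2(FPKM + 1) over the 6 libraries, which share the group difference and the replicate 1 pattern. Inhba was most like Cgnl1 (0.999), Wwtr1 (0.995) and Crim1 (0.993). Inhbb was most like Egr1 (0.997), Fabp5 (0.995) and Pmp22 (0.995), Inha like Adk (0.996), Smarce1 (0.988) and Cited2 (0.981), and Fst like Ahr (0.996), mt-Nd1 (0.992) and Hnrnpd (0.99). As an example, Cgnl1, the gene of a junction protein, had 44.3, 26.8 and 24.3 FPKM in GSK4112 libraries, against 61.8, 55.5 and 60.3 FPKM in control libraries.

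In the annotation, the antisense gene Gm48444 overlaps Inhba on the opposite strand. It had 2.37, 0.422 and 0.803 FPKM in GSK4112 libraries, against 2.79, 3.03 and 3.78 FPKM in control libraries. The strand setting of the counting is not given in the sources used here, so reads of the pair cannot be told apart. Acvr2a is overlapped by Orc4 (8.27, 8.77 and 7.54 FPKM in GSK4112 libraries, against 7.13, 7.75 and 8.59 FPKM in control libraries), a gene at a level like its own. The antisense gene Gm47040 over Fst was at 0 in all GSK4112 libraries and at 0, 0.287 and 0.497 FPKM in control libraries.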

How the data were processed

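RNA sequencing values of 6 libraries were analysed, 3 with GSK4112 and 3 of control, grouped and numbered by their titles. The deposited table holds FPKM values, which the steps of the values show to be scaled to exon length and library size, in 6 columns matched to samples by name. The build is GRCm38, per the submitters' processing notes. Which aligner, counter, annotation and strandedness were used is not given in the sources used here. Symbols, coordinates and exon lengths came from GENCODE M21 on GRCm38 (27098 of 27151 IDs matched).

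FPKM multiplied by exon length gave whole fragments within 0.01 for 92.8 to 93.1% of values below 500 fragments, which fixed the library totals; 8 of 10 members came out whole in every library, and Fst and Acvr1b did not. Genes with a mean of at least 1 FPKM entered a 2-sided moderated test on log2(FPKM + 1), fitted by limma 3.58.1 (R 4.3.3) with a variance trend, with Benjamini-Hochberg adjustment over all 12181 genes and a threshold of 0.05. Fold changes on this scale understate the change of low genes. The limma fit without the replicate block was tested on simulated data. Those values were drawn independently for each library, without the replicate 1 pattern, and the block was not tested in this way. Ratios were tested by exact permutation. The members and lists were chosen with earlier results of these data known. A gene of the list of SMAD2 and SMAD3 targets is not reported here and is left out of the counts and median of that list. Members are given in full; of each list the called genes and the 2 most abundant are named, and others are said to be named after their values were seen. Alternatives were pseudocounts, filters, scalings, limma without trend or with sample weights, limma-voom on recovered fragments, the replicate block and leaving out libraries. Same-numbered libraries were taken as pairs because all 3 correlations of their deviations exceeded 0.1; GSK4112 replicate 2 correlated better with control replicate 3 (0.53) and GSK4112 replicate 3 with control replicate 2 (0.357) than with their own numbers. A planned search of the protein precursors for cleavage motifs was not run, and Fst and Tgfbr3 had no promoter entry.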

Additional observations from a re-analysis of the deposited data

How the results depend on the processing

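Of 21 alternatives, 10 kept the count of called genes within 1.5 times the 126 reported (50 higher and 76 lower; median-of-ratios scaling gave 39 and 105) and 9 kept the count of 1 called member. Without a filter 26 genes and 0 members were called, and the adjusted p of Fst was 0.0565. The members called rose to 4 (Inhba, Inhbb, Fst and Fstl3) with sample weights (830 genes, 470 higher and 360 lower), the replicate block (839 genes), the replicate block with median-of-ratios scaling (786), without both replicate 1 libraries (856 without and 1139 with the replicate block) and with limma-voom on recovered fragments with the replicate block (1402). The cause was not tested. Leaving out 1 library gave 0 to 153 called genes and 0 to 3 called members. Without control replicate 1 there were 138 called genes, without GSK4112 replicate 1 153, and without control replicate 2 8. In limma 0 were called without control replicate 3, GSK4112 replicate 2 or GSK4112 replicate 3 (1843, 1224 and 1318 genes at an unadjusted p under 0.05). Each of these fits has 1 library fewer, and the cause of the spread between them was not tested.

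Inhba, Inhbb, Fst and Fstl3 were lower under every alternative that tested them, with log2 changes of -2.00 to -1.29, -2.03 to -1.31, -1.71 to -1.41 and -1.27 to -0.73; Acvr2a was above 0 under all 21. The sign turned for Inha without both replicate 1 libraries (0.0092, with and without the replicate block). On leaving out 1 library the log2 change ran from -0.27 to 0.0826 for Inha, -0.16 to 0.77 for Fstl1, -0.0422 to 0.22 for Acvr1b, -0.0288 to 0.43 for Acvr2b and -0.16 to 0.0137 for Tgfbr3. The log2 difference of the ratios ran from 1.04 to 2.11 for Inha over the beta subunits, -0.002 to 0.49 for Inhba over Inhbb, -0.25 to 0.50 for Fst plus Fstl3 over the beta subunits and -0.30 to 0.10 for Acvr2b over Acvr2a. The replicate block changed no call of a member other than those of Inhba, Inhbb and Fstl3. Acvr2b, Fstl3 and Tgfbr3 are under a mean of 5 FPKM and were not tested with that filter. Depth limits Acvr2b (71 to 202 fragments) and Fstl3 (76 to 310 fragments) most.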
